A study of Mus musculus with 3 samples.

Results

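Transcripts of 7 genes that guard or read DNA methylation were followed through 3 RNA sequencing libraries of mouse oocytes. The genes were Trim28, Zfp57 and Setdb1, which act together at imprinted loci, the insulator gene Ctcf, and the methyl-CpG-binding genes Mbd1, Mbd2 and Mbd3. They were taken by gene name, in a choice made with earlier results of these data known. All 7 were found among 23376 gene symbols, in 10 table rows. Donor animals were 8-week-old females of the outbred ICR strain. There was 1 library for each of 3 groups, namely control (exposure none), low dose PCB118 and high dose PCB118. PCB118 is a dioxin-like chlorinated biphenyl, and by the series title mothers were exposed while pregnant and the oocytes are those of their offspring. Amounts, the stage of the oocytes and the number of animals or oocytes behind a library were not given in the labels. Without replicates no value has an error and no test was possible, so each statement describes these libraries and not the exposures.

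Genomic imprints are DNA methylation marks laid down in the germ line that make the maternal and the paternal copy of a gene behave differently. After fertilisation, when most methylation is lost, the zinc finger protein ZFP57 binds a methylated motif at imprint control regions. It recruits TRIM28 (also called KAP1), a scaffold that brings the histone methyltransferase SETDB1, heterochromatin proteins and DNA methyltransferases. TRIM28 and ZFP57 stored in the egg are known to act in the early mouse embryo. CTCF binds certain control regions only where they are unmethylated and insulates enhancers there. MBD1 and MBD2 bind methylated CpG and recruit repressors, whereas mammalian MBD3 binds it poorly and serves as a subunit of the NuRD chromatin remodelling complex, in which MBD2 and MBD3 replace each other.

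Promoters of 3 of these genes are shown, those of Trim28, whose rows carry the widest differences described below, of Zfp57, the most abundant gene on average, and of the insulator gene Ctcf, which varied little. Each sequence runs 5′ to 3′ over 300 bases, from 250 before to 50 after a RefSeq start, on GRCm38.p6, with each CpG, the dinucleotide that carries the mark, in capitals.
Trim28 (chr7:13023902-13024201, plus strand): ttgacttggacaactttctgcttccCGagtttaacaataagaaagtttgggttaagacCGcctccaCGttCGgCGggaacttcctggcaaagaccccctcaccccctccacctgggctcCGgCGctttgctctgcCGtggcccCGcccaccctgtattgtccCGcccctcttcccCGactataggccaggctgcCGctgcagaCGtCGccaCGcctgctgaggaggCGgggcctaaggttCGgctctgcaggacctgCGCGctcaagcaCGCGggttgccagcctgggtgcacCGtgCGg
Zfp57 (chr17:37000913-37001212, plus strand): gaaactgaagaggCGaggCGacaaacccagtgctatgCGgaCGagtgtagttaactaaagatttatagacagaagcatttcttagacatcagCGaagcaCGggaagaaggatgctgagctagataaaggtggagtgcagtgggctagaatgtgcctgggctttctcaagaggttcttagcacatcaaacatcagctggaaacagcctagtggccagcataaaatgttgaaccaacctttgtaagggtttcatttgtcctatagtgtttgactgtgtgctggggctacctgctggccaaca
Ctcf (chr8:105636288-105636587, plus strand): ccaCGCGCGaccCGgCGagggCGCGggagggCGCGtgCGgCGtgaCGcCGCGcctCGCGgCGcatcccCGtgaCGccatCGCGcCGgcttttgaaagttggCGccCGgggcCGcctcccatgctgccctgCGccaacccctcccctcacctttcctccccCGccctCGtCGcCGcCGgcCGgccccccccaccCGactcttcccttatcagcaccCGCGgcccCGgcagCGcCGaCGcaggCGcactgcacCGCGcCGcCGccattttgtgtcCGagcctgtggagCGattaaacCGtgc
The Ctcf promoter held 47 CpGs, more than 98.6% of 32851 promoters of this length. That of Trim28 held 23, and the Zfp57 window shown held 6, below the median of 7 over all promoters. RefSeq has 3 starts for Zfp57, and the windows of the other starts held 9 and 4 CpGs. The hexamer TGCCGC, the core recognised by ZFP57 when methylated, was sought on both strands and contains a CpG that is counted above. It occurred 1 time in the Trim28 window and in 11.6% of all promoters, and these letters were not found in the windows of Zfp57, Ctcf, Setdb1 or Mbd3. A match in letters is a description only, and no methylation was measured here.

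Expression values were FPKM, that is fragments relative to transcript length and library size, so levels can be set side by side between genes. Genes averaging 1 FPKM or more across libraries were called expressed, 12151 in all, and all 7 genes were among them. Mbd1 was below 1 FPKM in control (0.65) and at high dose (0.99). It passed this filter only through its low dose value of 2.22 FPKM, the library in which it was highest. On average, with rows summed, Zfp57 and Trim28 were the most abundant, with means of 67.3 and 49.9 FPKM. Ctcf followed with a mean of 21.3 FPKM, then Setdb1 with 13.9, Mbd2 with 12.9 and Mbd3 with 10.1 FPKM, while Mbd1 averaged 1.29 FPKM. The place of Trim28 above Ctcf rests on a row listed at 0 at low dose, described below. At low dose summed Trim28 was at 18.4 FPKM and Ctcf at 22.7 FPKM. The Trim28 row above 0 in each library lay below Ctcf in all 3. In the control library Zfp57 stood above 93.7% of expressed genes and Mbd1 above 5.51%. With 1 library per group, no spread is available to say which neighbours in this order differ. In RNA from whole samples, fewer cells of a type and less RNA per cell cannot be told apart.

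**Figure D1:**
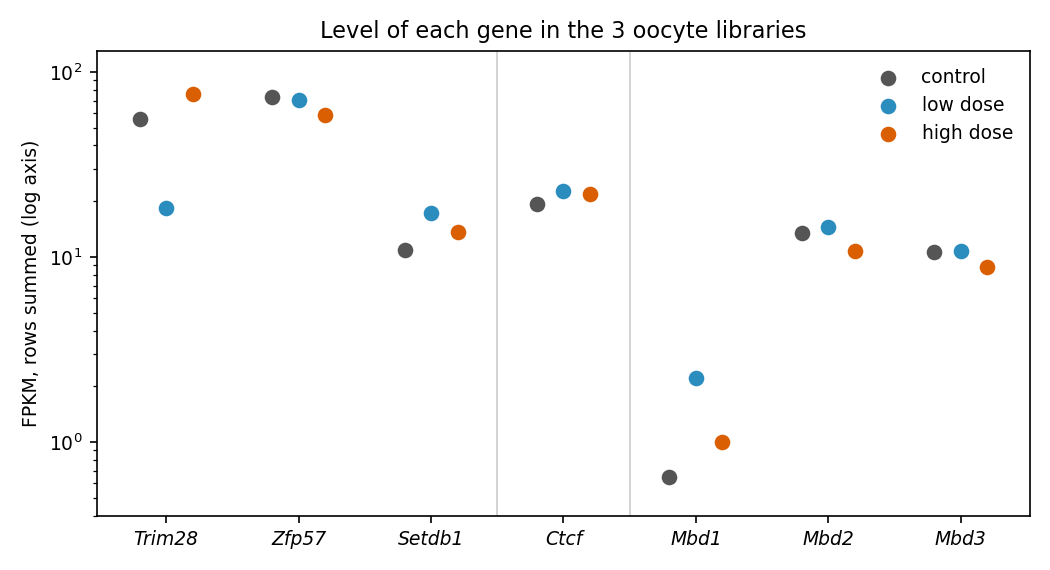
Level of each gene in FPKM (log axis), rows summed per gene, with 1 point per library for control, low dose and high dose. Zfp57 and Ctcf lie close together across libraries, Trim28 drops to 18.4 FPKM at low dose, and Mbd1 lies lowest throughout.

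The libraries carried the RNA of oocytes by their markers. Of 10 oocyte markers 9 had a row, all at 1 FPKM or more, with summed levels between 6153 and 7430 FPKM, of which Dppa3 alone held 4707 FPKM in control, 4174 at low dose and 5342 at high dose. Single markers differed widely below these sums, with Gdf9 at 661 FPKM in control, 38.5 at low dose and 193 at high dose. Bmp15 was at 4.27 FPKM in control, 18.7 at low dose and 15.8 at high dose. Of 12 granulosa and cumulus cell markers 8 had a row, with summed levels of 8.22 FPKM in control, 14.6 at low dose and 13.6 at high dose. Fshr, the receptor of follicle-stimulating hormone, made up most of each sum, at 5.61 FPKM in control, 9.95 at low dose and 9.05 at high dose. Inha was at 0.38 FPKM in control, 2.55 at low dose and 1.03 at high dose. Cyp19a1 was at 1.42, 1.32 and 2.22 FPKM in the same libraries. Has2 was listed at 0 in control and at low dose. Of 8 stromal, theca and epithelial markers 7 had a row and summed to between 4.95 and 6.25 FPKM, and of 7 blood and immune markers 1 had a row, below 1 FPKM in each library. Pecam1, a gene of endothelial cells, made up most of the stromal, theca and epithelial sum in each library. Its level was 2.66 FPKM in control, 3.96 at low dose and 3.30 at high dose. The part of other cells in the results below was not tested. A low-value estimate placed the depth at about 34700000 reads in control, 27900000 at low dose and 31500000 at high dose.

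The log2 ratio of a gene was taken after adding 1 FPKM, and a ratio of 1 or more in either direction, that is 2-fold, counted as a difference. This is a threshold on size, without any test. The added 1 FPKM understates the change of low genes. Between low dose and control, 1 of the 7 genes passed, Trim28, which was lower, beside 20.4% of all expressed genes in either direction and 5.84% on the lower side. Between high dose and control, 0 of 7 passed, beside 14.7% of expressed genes. Between high and low dose, 1 of 7 passed, Trim28 again, which was higher at high dose, beside 15.8% in either direction, 6.1% on the higher side and 9.73% on the lower side. Counts of 0 or 1 among 7 genes do not set them apart from these shares. The comparisons with control use the same control library, and the third uses both exposed libraries again.

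**Figure D2:**
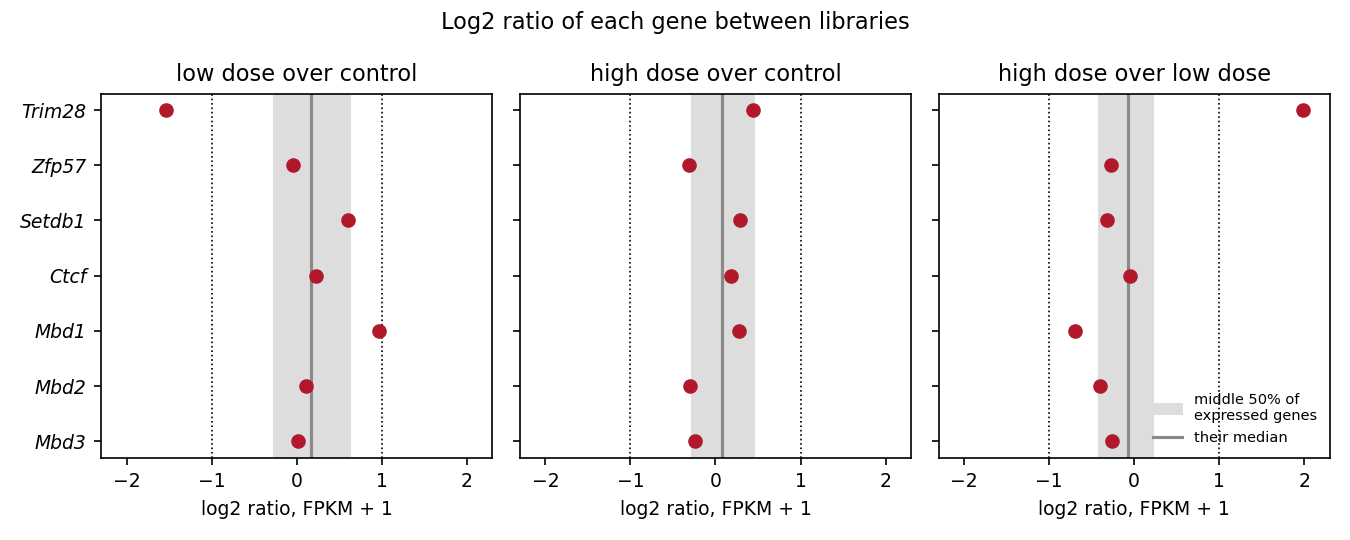
Log2 ratio of each gene (log2 of FPKM + 1) for low dose over control, high dose over control and high over low dose, with the middle 50% of expressed genes shaded, their median as a grey line and the 2-fold rule dotted. Only Trim28 lies past the dotted lines (-1.54 and 1.99), and Mbd1 at low dose lies just inside (0.97).

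Trim28, the corepressor scaffold, was at 55.5 FPKM in control, 18.4 FPKM at low dose and 75.7 FPKM at high dose. The low dose library was the one that stood apart, with log2 ratios of -1.54 for low dose over control, 0.44 for high dose over control and 1.99 for high over low dose. The gene lies at chromosome 7, 12999114 to 13031035, plus strand, by GENCODE M21 on GRCm38 (mm10).

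These ratios rested on how Trim28 was divided into rows. Row MSTRG.37236 held 17.0 FPKM in control, 18.4 FPKM at low dose and 16.3 FPKM at high dose, so that the 3 libraries lay close together. Row MSTRG.37237 held 38.5 FPKM in control, was listed at 0 at low dose and held 58.1 FPKM at high dose. It carried 69.5% of the Trim28 value in control and 76.7% at high dose. Row MSTRG.37239 was absent from the control table, listed at 0 at low dose and at 1.36 FPKM at high dose. With only the row that was above 0 in each library, a choice made after these values were seen, the log2 ratios were 0.11 for low dose over control, -0.06 for high dose over control and -0.17 for high over low dose. Both calls ended and all 3 ratios changed sign.

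A row listed at 0 can be a failed estimate of the assembler or a transcript missing from the library. Which of these holds was not tested, and the tables give neither coordinates nor a transcript for a row. The annotation has 10 transcripts of Trim28, from 562 to 3245 bases, of which 1 is coding, with 17 exons, and 8 are short transcripts with a retained intron. The other, a noncoding transcript of 851 bases, starts 25038 bases upstream of the RefSeq start, and with it the gene spans Zbtb45, a zinc finger gene on the opposite strand. Zbtb45 was at 0.73 FPKM in control, 1.87 at low dose and 1.67 at high dose, below row MSTRG.37236 in each library, and below MSTRG.37237 in control and at high dose but not at low dose, where that row is listed at 0. The next gene downstream, Chmp2a, a subunit of the ESCRT membrane complex on the opposite strand, has its 3′ end 974 bases beyond Trim28. Its level was 241 FPKM in control, 158 at low dose and 225 at high dose. Chmp2a was therefore also lowest in the low dose library, without passing 2-fold. Whether reads of either neighbour entered a Trim28 row was not tested. Among all expressed genes, 14.8% had a row of at least 1 FPKM in some library that was at or taken as 0 in another, and for 6.26% such a row made up at least 50% of the gene's highest summed value.

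**Figure D3:**
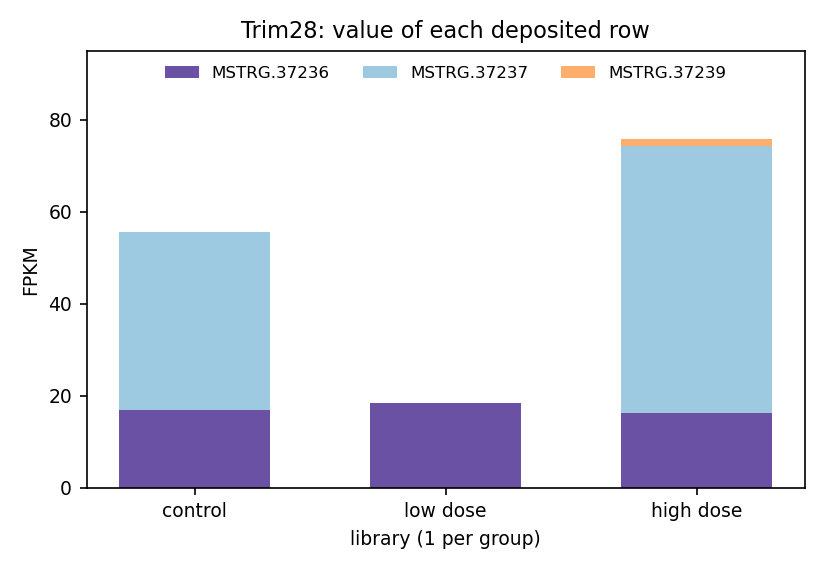
Stacked FPKM of the 3 deposited rows of Trim28 by library (control, then low and high dose), 1 library each. The lower part (MSTRG.37236) stays between 16.3 and 18.4 FPKM, and MSTRG.37237 is at 38.5, 0 and 58.1 FPKM in control, low dose and high dose.

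Zfp57, the KRAB zinc finger protein that reads methylated imprint control regions, was at 72.9 FPKM in control, 70.7 FPKM at low dose and 58.4 FPKM at high dose. The high dose library was the lowest and the 3 values lay within 1.25-fold. The log2 ratios were -0.04 for low dose over control, -0.31 for high dose over control and -0.27 for high over low dose. Of all expressed genes 19.5% had a smaller range over the 3 libraries on the log2 scale. Zfp57 had a single row, and the gene lies at chromosome 17, 37001163 to 37010635, plus strand, with 13 annotated transcripts and no overlapping gene.

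Setdb1, which methylates histone H3 at lysine 9 where TRIM28 is bound, was at 10.9 FPKM in control, 17.2 FPKM at low dose and 13.6 FPKM at high dose. Both exposed libraries were above control, with log2 ratios of 0.61 at low dose and 0.29 at high dose, and the ratio of high over low dose was -0.32. None passed 2-fold, and the low dose value was 1.57-fold that of control. After trimmed mean scaling the low dose log2 ratio was 0.39. Setdb1 had a single row, and the annotation places the gene at chromosome 3, 95323525 to 95357202, minus strand, where it overlaps Cers2, a ceramide synthase gene on the opposite strand. Cers2 was at 5.25 FPKM in control, 6.03 at low dose and 5.38 at high dose. The strand setting of the counting is not given in the sources used here, so reads of overlapping genes cannot be told apart.

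The relative levels of the 3 partners followed Trim28 and its rows. Zfp57 was at 1.31 times the summed Trim28 level in control, 3.84 times at low dose and 0.77 times at high dose. Against the steady row MSTRG.37236 alone these ratios of levels were 4.30 in control, 3.84 at low dose and 3.59 at high dose. Summed Trim28 was at 5.07 times the Setdb1 level in control, 1.07 times at low dose and 5.58 times at high dose. With the steady row alone it was at 1.55, 1.07 and 1.20 times the Setdb1 level in control, low dose and high dose.

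Ctcf, the insulator protein with an array of zinc fingers, was at 19.3 FPKM in control, 22.7 FPKM at low dose and 21.9 FPKM at high dose. With rows summed it had the narrowest spread of the 7 genes, with values within 1.18-fold, whereas the single Trim28 row MSTRG.37236 lay within 1.13-fold. For Ctcf 11.3% of expressed genes had a smaller range on the log2 scale. The log2 ratios were 0.23 for low dose over control, 0.18 for high dose over control and -0.05 for high over low dose, the last of which was 0.06 after scaling by the trimmed mean. Ctcf had a single row and lies at chromosome 8, 105636568 to 105682922, plus strand. Its start overlaps Agrp, annotated on the opposite strand, whose largest row of 3 was at 19.2 FPKM in control, 78.5 FPKM at low dose and 16.6 FPKM at high dose. Agrp thus stood apart at low dose, where Ctcf did not. Whether reads of Agrp entered the Ctcf row was not tested.

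Mbd1, which binds methylated CpG through its MBD domain and unmethylated CpG through a CXXC zinc finger, was at 0.65 FPKM in control, 2.22 FPKM at low dose and 0.99 FPKM at high dose. The low dose library was again the one that stood apart, here on the higher side, at 3.43-fold the control level, whereas the high dose was at 1.53-fold. The log2 ratios with 1 FPKM added were 0.97 for low dose over control, 0.27 for high dose over control and -0.69 for high over low dose. The first lay just short of the rule and became 1.25 with 0.5 FPKM added and 1.64 with 0.1 FPKM added. After trimmed mean scaling it was 0.82, and after median ratio scaling also 0.82. As deposited, 84.9% of expressed genes had a lower ratio of low dose over control. At the estimated depth, 1 read over the longest transcript of 3920 bases was worth 0.0074 FPKM in control, 0.0092 at low dose and 0.0081 at high dose. The levels would then rest on about 88.1, 243 and 123 reads in control, low dose and high dose, if the longest transcript is the one present. Mbd1 had a single row and lies at chromosome 18, 74267605 to 74282732, plus strand.

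Mbd2, the methyl-CpG reader of NuRD, was at 13.4 FPKM in control, 14.5 FPKM at low dose and 10.7 FPKM at high dose. Its high dose value was the lowest, and the log2 ratios were 0.11 for low dose over control, -0.30 for high dose over control and -0.41 for high over low dose. The first was -0.10 after trimmed mean scaling. Mbd2 had 2 rows. The larger, MSTRG.20658, was at 12.7 FPKM in control, 14.2 at low dose and 9.59 at high dose. The smaller, MSTRG.20657, was at 0.68 FPKM in control, 0.30 at low dose and 1.13 at high dose, so the rows ran in opposite order. The gene lies at chromosome 18, 70568189 to 70626131, plus strand.

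Mbd3 was at 10.7 FPKM in control, 10.8 FPKM at low dose and 8.87 FPKM at high dose, in a single row. The log2 ratios were 0.02 for low dose over control, which became -0.18 after trimmed mean scaling, -0.24 for high dose over control and -0.26 for high over low dose. The gene lies at chromosome 10, 80392539 to 80399550, minus strand. Mbd2 was at 1.26 times the Mbd3 level in control, 1.34 times at low dose and 1.21 times at high dose, so the ratio of these alternative NuRD subunits was close in the 3 libraries. Of the summed Mbd1, Mbd2 and Mbd3 level, Mbd1 made up 2.62% in control, 8.07% at low dose and 4.83% at high dose.

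At the high dose Zfp57, Mbd2 and Mbd3 were each lower than control, by log2 ratios between -0.31 and -0.24, and Setdb1, Ctcf and Mbd1 were each higher, by 0.18 to 0.29. None of these values passed 2-fold, and over the 12151 expressed genes 55.8% had a positive ratio. The median of the 7 genes was 0.18 at high dose, against 0.08 for all expressed genes. For low dose over control it was 0.11, against 0.17 for all expressed genes, and for high over low dose -0.27, against -0.07. Between high and low dose 6 of the 7 ratios were negative and that of Trim28 positive, while 43.0% of all expressed genes had a positive ratio. The sign of Ctcf turned positive under each scaling tried, and that of Trim28 turned negative with the row above 0 in each library (-0.17).

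Genes with the most similar ratios to control were sought among 5394 genes averaging 5 FPKM or more, by the distance between their pairs of log2 ratios. This likeness rests on 3 libraries only. For Trim28 the nearest were Rpl41, a ribosomal protein gene (566 FPKM in control, 199 at low dose and 814 at high dose, distance 0.09), Plagl1, an imprinted zinc finger gene (12.3, 3.24 and 16.2 FPKM in the same libraries, distance 0.12), and Coa7 (distance 0.15). For Ctcf 149 genes lay within a distance of 0.1, for Mbd3 85, for Setdb1 75, for Zfp57 74, for Mbd2 50 and for Mbd1 20, against 1 for summed Trim28. The values of summed Trim28 rest on the row listed at 0. With row MSTRG.37236 alone, 125 genes lay within 0.1, and the nearest were Psg20, Csnk1e and Igbp1. The nearest genes were Ptpn11 for Ctcf, Eif4a3 for Mbd3, Spop for Setdb1, Eif3d for Zfp57, Spa17 for Mbd2 and Thoc5 for Mbd1.

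The partners of these genes were followed in 5 lists, which overlap with the 7 genes and with each other. Among 10 expressed partners of TRIM28 and ZFP57 other than the 7 genes, 3 were higher and 0 lower at low dose, and 1 was higher and 1 lower at high dose. The shares over all expressed genes were 14.5% higher and 5.84% lower for low dose, and 9.51% higher and 5.18% lower for high dose. The medians of the list were 0.35 and 0.28 at the low and the high dose. Cbx5, which encodes the heterochromatin protein HP1 alpha bound by TRIM28, was at 11.7 FPKM in control, 26.4 at low dose and 32.4 at high dose (log2 ratios to control 1.10 and 1.39). Of its 2 rows, 1 was at 6.45 FPKM in control, 6.88 at low dose and 4.91 at high dose, and the other at 5.29, 19.5 and 27.4 FPKM. Zfp445, the second KRAB zinc finger gene known to guard imprints, was at 0.42 FPKM in control, 2.62 at low dose and 1.53 at high dose (log2 ratios 1.35 and 0.84). Without the low dose library its mean would be below 1 FPKM. Zfp445 thus counted as expressed only through the library in which it was called higher. Uhrf1, which brings Dnmt1 to replicated DNA, had opposite log2 ratios to control of 1.19 at low dose and -3.05 at high dose.

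Among 7 expressed genes of histone H3 lysine 9 methylation and the HUSH silencing complex other than Setdb1, 0 passed at low dose. At high dose 0 were higher and 1 lower. Of all expressed genes, 20.4% passed at low dose, and 9.51% were higher and 5.18% lower at high dose. The lower gene of the list was Suv39h2, a methyltransferase of heterochromatin. It was at 18.5 FPKM in control, 23.5 at low dose and 7.61 at high dose (log2 ratio -1.18 for high dose over control). Ehmt1, which encodes the methyltransferase GLP, was at 10.2 FPKM in control, 20.5 at low dose and 5.18 at high dose, with a log2 ratio of -1.80 for high over low dose. The medians of this list were 0.33 at low dose and -0.19 at high dose.

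Among 5 expressed methyl-CpG-binding genes of the list other than Mbd1, Mbd2 and Mbd3, 2 were higher and 0 lower at low dose. At high dose 0 were higher and 1 lower. Beside these counts stand 14.5% higher and 5.84% lower of all expressed genes at low dose, and 9.51% and 5.18% at high dose. Uhrf2, a paralogue of Uhrf1, was at 0.65 FPKM in control, 3.14 at low dose and 0.76 at high dose, but 1 of its 3 rows was listed at 0 in control and another at 0 at high dose. Uhrf2 counted as expressed only through its low dose value, the same value that made it 1 of the higher genes. Uhrf1 was the other higher gene at low dose and the lower gene at high dose. Mbd4, a thymine glycosylase, was at 2.26 FPKM in control, 1.63 at low dose and 1.64 at high dose.

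Among 9 expressed NuRD subunits other than Mbd2 and Mbd3, 1 was higher and 1 lower at low dose. At high dose 1 was higher and 0 lower. All expressed genes gave 14.5% higher and 5.84% lower at low dose, and 9.51% and 5.18% at high dose. Medians of these subunits were 0.61 at low dose and 0.14 at high dose, against 0.17 and 0.08 for all expressed genes. With Mbd2 and Mbd3 counted, the low dose median was 0.21. Gatad2a, which links MBD2 or MBD3 to the remodelling ATPase, was at 1.82 FPKM in control, 15.5 at low dose and 15.9 at high dose, in a single row. Both exposed libraries were far above control, with log2 ratios of 2.54 and 2.58, and they share that control. Mta3 was at 16.9 FPKM in control, 7.83 at low dose and 14.2 at high dose (log2 ratio -1.02 at low dose). The remodelling ATPase Chd4 was at 6.64 FPKM in control, 11.1 at low dose and 6.23 at high dose, and the histone chaperone Rbbp7 at 407, 403 and 366 FPKM.

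Among 10 expressed genes of cohesin, its regulators and other insulator factors, 1 was higher and 1 lower at low dose. At high dose 0 were higher and 1 lower. Over all expressed genes 14.5% were higher and 5.84% lower at low dose, and 9.51% and 5.18% at high dose. Pds5a, a regulator of cohesin release, was at 8.45 FPKM in control, 3.55 at low dose and 2.22 at high dose (log2 ratios -1.05 and -1.55). Zfp143, a zinc finger factor found at chromatin loops, was at 2.74 FPKM in control, 7.08 at low dose and 2.16 at high dose (log2 ratios 1.11 and -0.25). Rad21, the kleisin subunit of cohesin, was at 10.1 FPKM in control, 14.4 at low dose and 16.1 at high dose. The medians of this list, 0.22 and 0.08, lay near those of all expressed genes, 0.17 and 0.08.

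**Figure D4:**
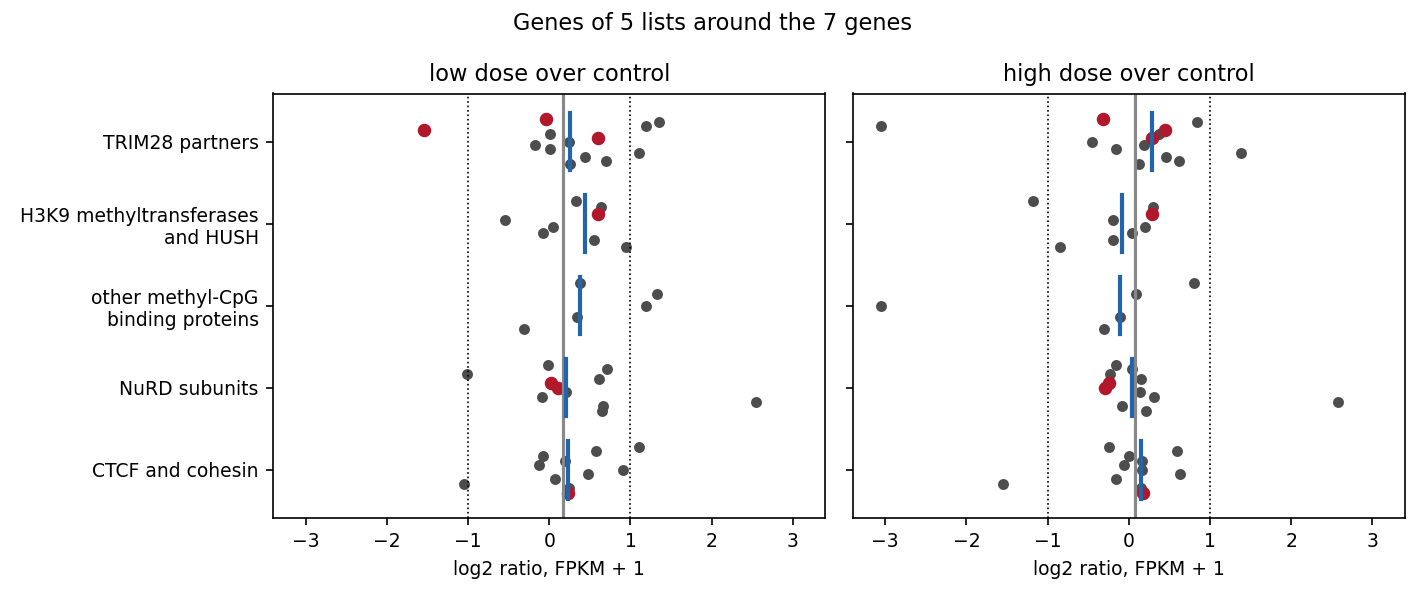
Log2 ratio to control (log2 of FPKM + 1) of the expressed genes of 5 lists at low dose and the high dose. The genes Trim28, Zfp57, Setdb1, Ctcf, Mbd2 and Mbd3 are in red. List medians in blue include the red genes, so they can differ from the medians of the other genes in the text. The median of all expressed genes is in grey and the 2-fold rule dotted. Trim28 (-1.54) is the lowest point at low dose, Gatad2a (2.54 and 2.58) the highest at both doses, and Uhrf1 (-3.05) the lowest at high dose.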

How the data were processed

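Total RNA of oocytes was sequenced in 3 libraries, grouped by the exposure label with 1 library per group. Each library has a table of FPKM made by the authors, as its header states, with a gene identifier and name per row. HISAT2, StringTie and the build mm10 are named in the submitters' processing notes; the sources used here give no versions, annotation or strand setting. Rows were joined by identifier, absent rows were taken as 0, and 61 identifiers with conflicting names, none of them of a gene reported here, were left out. FPKM were summed per gene name and log2 ratios taken after adding 1 FPKM, values as deposited. FPKM are not counts, and no count model was fitted. Depth was estimated from single-transcript genes, whose FPKM times length clustered at the worth of 1 read. Of such low values 48.7% in control, 38.2% at low dose and 41.5% at high dose lay within 0.1 of a whole number of reads, so whole reads were not recovered. Intervals were not computed. Positions came from GENCODE M21 and promoters from RefSeq (GRCm38.p6, matched for 5 of 7 genes). The 7 genes and the lists were chosen with earlier results of these data known. Named genes were the 7 genes, list genes past 2-fold, cell type markers and the nearest genes by ratio. Mbd4, Chd4, Rbbp7, Rad21, Zbtb45, Chmp2a, Cers2, Agrp, Inha and Cyp19a1 were named after their values were seen. A gene of the lists is not reported here and was left out of their counts. Tools were Python 3.11.15, pandas and numpy. Other pseudocounts, scalings, filters, row choices and a 1.5-fold rule were tried.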

Additional observations from a re-analysis of the deposited data

How the results depend on the processing

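Of the 21 log2 ratios of the 7 genes, the calls were compared under 10 alternatives, of which the restriction to rows above 0 in all 3 libraries and scaling to the control total were chosen after seeing the data. Under the restriction Trim28 changed sign in each comparison. Its log2 ratios were 0.11 for low dose over control, -0.056 for high dose over control and -0.17 for high over low dose. The number of the 7 genes past 2-fold became 0 in each comparison, beside 1960, 1389 and 1429 of 11553 expressed genes. With the largest row only, the Trim28 log2 ratio for low dose over control was -5.31, but that row is listed at 0 at low dose. Mbd1 at low dose passed the rule with 0.1 FPKM added (1.64), with 0.5 FPKM added (1.25) and with each library scaled to 1000000 FPKM (1.20). It also passed under the 1.5-fold rule (0.97), which took in Setdb1 (0.61) too. So 2 of the 7 genes passed under the first 3 settings and 3 under the last. Beside them, 3434, 2927, 2916 and 4816 of 12151 expressed genes passed under these settings in the same order. Scaling to 1000000 FPKM also raises the values against the added 1 FPKM, and scaling to the control total, which does not, gave 0.85 for Mbd1, below the rule. For high over low dose Mbd1 passed with 0.1 FPKM added (-1.09) and under the 1.5-fold rule (-0.69). Each gave 2 of the 7 genes, beside 2632 and 3628 of 12151 expressed genes. Small ratios changed sign with scaling by trimmed mean, by median ratio, to 1000000 FPKM and to the control total. These were Mbd2 at low dose (-0.10, -0.091, -0.054 and -0.051), Mbd3 at low dose (-0.18, -0.17, -0.14 and -0.14) and Ctcf for high over low dose (0.064, 0.059, 0.056 and 0.054). Trimmed mean scaling moved the median of all expressed genes at low dose to -0.01, against 0.17 as deposited, and the share of higher genes among those past the rule to 58.8%, against 71.3%. Of the 12151 expressed genes, 2476, 1784 and 1923 passed the rule for low dose over control, high dose over control and high over low dose. Under the 1.5-fold rule 4816, 3842 and 3628 of them passed. Of the 6330 genes averaging 5 FPKM or more, 1341, 990 and 951 passed. These last counts come from a smaller set of genes, so they cannot be set directly against the others. For high dose over control 2732 of the 12151 genes passed with 0.1 FPKM added. The causes were not tested. No paired analysis was possible because each group has 1 library. Depth limits Mbd1 most, the gene with the lowest level.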
